A study of Mus musculus with 4 samples.

Results

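Liver sinusoidal endothelial cells line the low-pressure capillaries of the liver. They carry open pores instead of a closed wall, clear waste molecules from the blood with scavenger receptors, and depend on vascular endothelial growth factor (VEGF) and angiopoietin signals from neighbouring cells. In the fetus, these capillaries also run through the tissue in which blood cells form. Here 10 genes of these cells were followed in the livers of fetuses from dams on 2 diets. They were the scavenger receptors Stab1 and Stab2, the hyaluronan receptor Lyve1, the liver endothelial gene Oit3, the VEGF receptors Kdr, Flt1 and Flt4, the angiopoietin receptor Tek, and the junction proteins Pecam1 and Cdh5. The genes were chosen by name, and every non-control probe whose transcript belongs to one of them was taken. This gave 12 of the 56605 non-control probes on the array, for 10 of the 22911 genes that could be named, with 2 probes each for Stab2 and Oit3 and 1 for each of the other genes.

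The dams were C57BL/6J mice that received either a control diet (CD, 4.3% of energy as fat) or a high-fat diet (HFD, 60% of energy as fat) while pregnant, and the fetal livers were taken at midgestation. Total liver RNA was labelled with Cy3 and hybridised to 4 single-colour arrays, 2 for CD and 2 for HFD, described by the submitters as biological replicates. The number of fetuses and dams behind an array is not given in the sources used here, so p-values measure only the spread between these arrays. Whole liver was used, so that fewer endothelial cells and less RNA per endothelial cell cannot be told apart. The level of a probe was the log2 of its background-subtracted intensity, scaled by subtracting the array's 75th percentile, so that 0 is the brightness of a fairly bright probe. Of the spots, 65.4% to 70.0% per array were well above background.

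Every sample is labelled female, but the arrays did not all fit that label. On replicate 1 of both diets, the Y-linked transcripts Eif2s3y, Kdm5d, Ddx3y and Uty were well above background and Xist, the RNA of the inactive X chromosome, was not. On replicate 2 of both diets the reverse held. Eif2s3y had levels of 1.45 on CD replicate 1 and 1.84 on HFD replicate 1, and Xist had levels of -0.65 on CD replicate 2 and -0.74 on HFD replicate 2. The pattern was the same for both diets, so the difference between diets is given below also within each replicate number, as 1 array against 1 array and without a test.

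All 12 probes were well above background on all 4 arrays, with intensities from 89.2 to 7607, and all 12 were tested. The sinusoidal genes differed little between the diets. The fitted log2 fold change of HFD against CD, taken from the brighter probe of each gene, ranged from -0.26 to 0.22, with 5 genes above 0 and 5 below. Its median was 0.04, as was the median over all 18205 genes tested. At an unadjusted limma p under 0.05 together with a 2-fold or larger change, 0 of the 10 genes were higher and 0 were lower. Over all genes tested, 0.291% were higher and 0.478% lower at these cutoffs. At an unadjusted p under 0.05 alone, neither limma nor the per-probe test named in the methods called any of the 12 probes, while limma called 518 of the 18205 genes. After Benjamini-Hochberg adjustment, limma called 0 of the 41332 tested probes. The 95% intervals of all 10 genes held 0. Their outermost ends, over different genes, were -0.72 and 0.74 on the log2 scale, or 0.606-fold and 1.67-fold, with standard errors from 0.16 to 0.21. With 2 arrays per diet, the smallest p that exact permutation allows is 0.333.

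**Figure D1:**
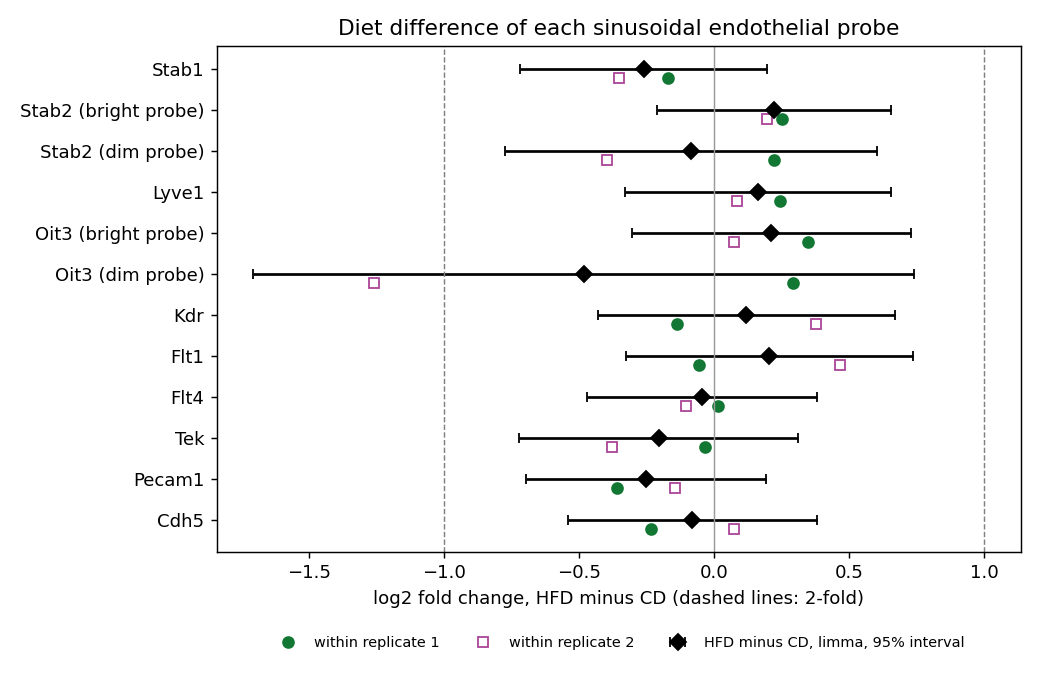
Log2 fold change of each of the 12 probes, HFD minus CD (diamonds, with 95% limma intervals, 2 arrays per diet), with the difference within replicate 1 (circles) and within replicate 2 (squares) below it. Every interval spans 0, and the dim probe of Oit3 is the only one whose interval passes a 2-fold change.

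The groups did not overlap for 5 of the 10 genes. Both HFD arrays lay above both CD arrays for Stab2 and Oit3, where 23.0% of all genes tested had this order. They lay below both CD arrays for Stab1, Pecam1 and Tek, where 10.1% of all genes did. The median absolute difference between diets over the 10 genes was 0.21, beside 0.14 over all genes tested. For 3 of the 10 genes (Stab1, Stab2 and Pecam1), the difference between diets was larger than the differences within both diets, as it was for 22.1% of all genes tested.

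Stab1 and Stab2 encode the stabilins, paired scavenger receptors that take up modified proteins and, for Stab2, hyaluronan. Stab1 had levels of 2.76 and 2.97 under CD and 2.59 and 2.62 under HFD. Both HFD arrays were lower, and they lay closer to each other than the CD arrays did. The means were 2.86 ± 0.15 (SD, n = 2) for CD and 2.60 ± 0.02 (SD, n = 2) for HFD. This gave a log2 fold change of -0.26 (standard error 0.17, adjusted p = 1.00, 95% interval -0.72 to 0.20), and the difference was -0.17 within replicate 1 and -0.35 within replicate 2.

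The brighter probe of Stab2 lay on the other side. It had levels of 2.63 and 2.75 under CD and 2.88 and 2.94 under HFD, so both HFD arrays were higher. The log2 fold change was 0.22 (standard error 0.16, adjusted p = 1.00, 95% interval -0.21 to 0.66), with differences of 0.25 and 0.19 within the replicate numbers. The dimmer probe of Stab2, on the same transcript, did not show this order. Its levels were 1.11 and 1.73 under CD and 1.33 on each HFD array, so the HFD arrays fell between the CD arrays. Its log2 fold change was -0.09 (95% interval -0.77 to 0.60), and it was 0.22 within replicate 1 and -0.39 within replicate 2.

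Oit3 encodes a secreted protein of liver sinusoidal endothelium. Its brighter probe had levels of 1.81 and 2.15 under CD and 2.16 and 2.22 under HFD. Both HFD arrays were higher, but HFD replicate 1 and CD replicate 2 were nearly level. The log2 fold change was 0.21 (standard error 0.19, adjusted p = 1.00, 95% interval -0.31 to 0.73), with 0.35 within replicate 1 and 0.07 within replicate 2. The dimmer probe of Oit3 had the widest spread of all 12 probes, with levels of -3.02 and -1.75 under CD and -2.73 and -3.00 under HFD. Its CD replicate 2 value stood apart from the other arrays. The log2 fold change of this probe was -0.48 (95% interval -1.71 to 0.74). Without CD replicate 1 it was -1.12 (adjusted p = 0.222), past both cutoffs, but CD was then only the array that stood apart, whose own spread was assumed to be that of the HFD arrays. Without CD replicate 2 it was 0.15. Both genes with a pair of probes thus gave opposite signs between their probes, and with the mean over the probes of a gene Oit3 had a log2 fold change of -0.14.

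**Figure D2:**
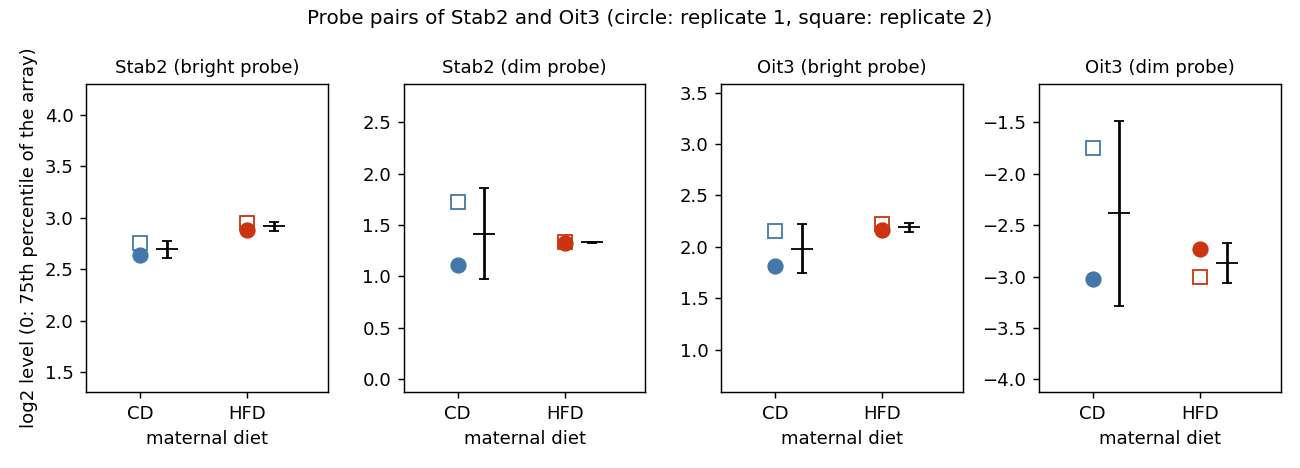
Levels of the bright and dim probes of Stab2 and Oit3 on each array, as log2 intensity relative to the array's 75th percentile, with the mean and SD (n = 2) beside the points; each panel spans the same range around its own centre. The bright probes have both HFD arrays above both CD arrays, while on the dim probes CD replicate 2 is highest and CD replicate 1 lowest.

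Lyve1, the hyaluronan receptor that sinusoids share with lymphatic vessels, had levels of 1.32 and 1.59 under CD and 1.56 and 1.67 under HFD. The groups overlapped, and the log2 fold change was 0.16 (95% interval -0.33 to 0.66). The difference was 0.24 within replicate 1 and 0.08 within replicate 2.

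Among the VEGF receptors, Kdr is the main signalling receptor for VEGF-A on blood endothelium, Flt1 binds VEGF-A tightly and can act as a decoy, and Flt4 binds VEGF-C and VEGF-D. Kdr had levels of 2.83 and 2.45 under CD and 2.69 and 2.83 under HFD. The CD replicate 2 array was the low one, and CD replicate 1 matched HFD replicate 2. The log2 fold change was 0.12 (95% interval -0.43 to 0.67), made up of -0.14 within replicate 1 and 0.38 within replicate 2. Flt1 was also lowest on CD replicate 2, with levels of 1.85 and 1.60 under CD and 1.80 and 2.06 under HFD. Its CD replicate 1 lay nearest to HFD replicate 1, and HFD replicate 2 was the highest array. Its log2 fold change was 0.21 (95% interval -0.33 to 0.74), with -0.06 within replicate 1 and 0.47 within replicate 2. For both receptors HFD was higher within replicate 2 and lower within replicate 1. Flt4 was the steadiest of the 12 probes. Its levels were -3.07 and -2.98 under CD and -3.06 and -3.08 under HFD, a spread of 0.10 over all 4 arrays, and its log2 fold change was -0.04 (95% interval -0.47 to 0.38).

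Tek is the receptor for the angiopoietins, which stabilise vessels. It had levels of -0.80 and -0.46 under CD and -0.83 on each HFD array. Both HFD arrays were lower, although CD replicate 1 was within 0.03 of HFD replicate 1. The log2 fold change was -0.20 (95% interval -0.72 to 0.31), with -0.03 within replicate 1 and -0.38 within replicate 2. Of the junction proteins, Pecam1 holds neighbouring endothelial cells together and is also found on platelets. It had levels of -1.69 and -1.74 under CD and -2.05 and -1.88 under HFD. The CD arrays were close together and both HFD arrays were lower. The means were -1.71 ± 0.03 (SD, n = 2) and -1.96 ± 0.12 (SD, n = 2). This was a log2 fold change of -0.25 (95% interval -0.70 to 0.19), and the difference was -0.36 within replicate 1 and -0.14 within replicate 2. Cdh5, the cadherin of endothelial junctions, did not show this order. It had levels of 2.13 and 1.97 under CD and 1.90 and 2.05 under HFD, with a log2 fold change of -0.08 (95% interval -0.54 to 0.38) and differences of -0.23 and 0.07 within the replicate numbers.

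**Figure D3:**
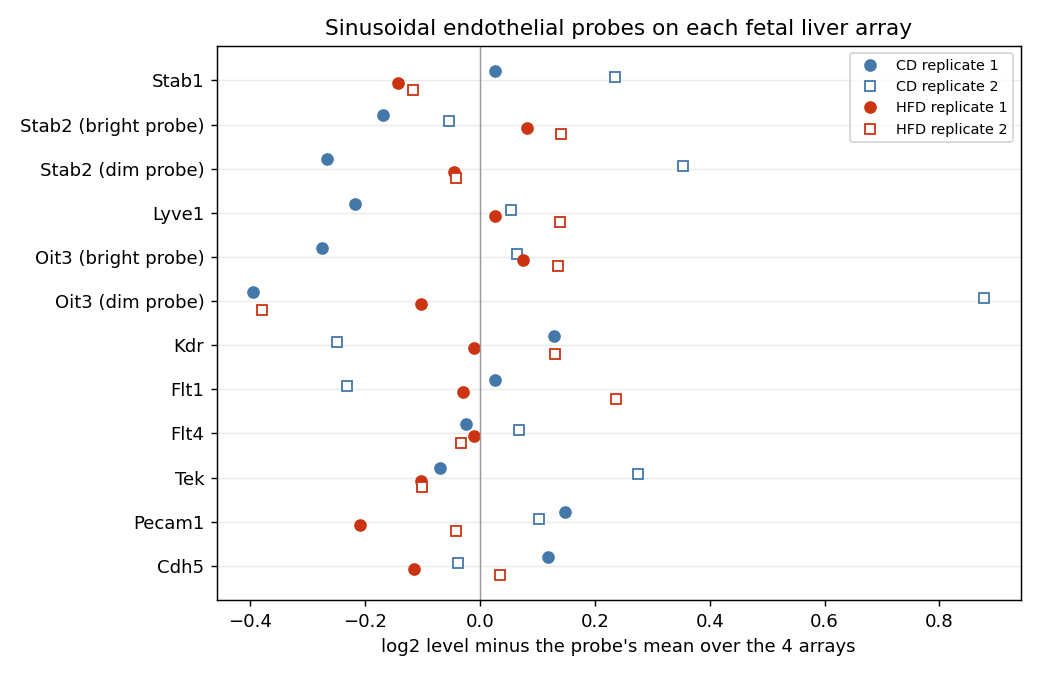
Level of each of the 12 probes on the 4 arrays, on the log2 scale, after subtracting the probe's mean over the arrays (blue CD, red HFD, filled circles replicate 1, open squares replicate 2). The HFD points of a probe lie within 0.28 of each other, while the CD points of the dim Oit3 probe lie furthest apart.

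The sinusoidal genes varied more between the CD arrays than between the HFD arrays. The absolute difference between arrays of a diet had a median of 0.23 for CD and 0.09 for HFD, beside 0.32 and 0.10 over all genes tested. It was larger between the CD arrays for 8 of the 10 genes. Replicate 2 was the higher array for 6 of 10 genes under CD and for 9 of 10 under HFD. HFD replicate 2 was the highest array for 5 genes and HFD replicate 1 for 0, while HFD replicate 1 was the lowest for 4. These counts were not set beside those over all genes tested, so they do not mark the sinusoidal genes as unusual.

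For 6 of the 10 genes the tables used here hold a promoter sequence (RefSeq, GRCm38.p6). ETS factors such as Erg, Fli1 and Ets1 control many endothelial genes and bind DNA around the letters GGAA. The motif AGGAAG was searched on both strands, with no overlap with another motif, in the 150 bases before each start. It was found in 3 of the 6 genes (Stab1, Stab2 and Flt1), and in 19.7% of the 32851 promoters of the table. The stabilin promoters are shown because these related receptors lay on opposite sides by the brighter Stab2 probe, though not by its dimmer one. That of Flt1 is shown because it held more than 1 match. Each is written from 5′ to 3′ on the strand of its gene, the minus strand in all 3 cases, with the motif, or its reverse complement in Stab2, in capitals.
Stab1, chr14:31168642-31168791: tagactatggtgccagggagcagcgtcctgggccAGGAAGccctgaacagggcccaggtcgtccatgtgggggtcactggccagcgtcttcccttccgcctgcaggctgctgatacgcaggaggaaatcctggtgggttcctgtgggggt
Stab2, chr10:87007943-87008092: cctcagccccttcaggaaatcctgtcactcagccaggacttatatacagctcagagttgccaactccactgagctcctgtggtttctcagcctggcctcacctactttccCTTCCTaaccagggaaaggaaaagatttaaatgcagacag
Flt1, chr5:147726012-147726161: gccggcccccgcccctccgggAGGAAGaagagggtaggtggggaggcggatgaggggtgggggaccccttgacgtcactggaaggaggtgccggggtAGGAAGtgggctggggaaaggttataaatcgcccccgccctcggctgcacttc
The match begins 116 bases before the start in Stab1 and 40 bases before it in Stab2, and the matches in Flt1 begin 129 and 53 bases before it. A match is a description of the letters only. Tek, Kdr and Flt4 had no match to AGGAAG in this window. Each of them does hold the shorter core GGAA or its reverse complement, which was not counted.

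The factors themselves were also measured. Erg had levels of -2.17 and -2.02 under CD and -2.57 and -2.19 under HFD, both HFD arrays being lower, with a log2 fold change of -0.29 (95% interval -0.84 to 0.26). Fli1 had a log2 fold change of 0.15 and Ets1 of 0.06, with both HFD arrays higher for each. For Ets1, however, HFD replicate 2 and CD replicate 1 were nearly level, both at 0.49, and its other probe had the opposite sign. These ETS factors were named for the motif and after their values had been seen. Of the 12 endothelial transcription factors listed, 0 had an unadjusted limma p under 0.05, and the median log2 fold change was 0.08. Both HFD arrays were higher for 3 of them (23.0% of all genes tested) and lower for 2 (10.1%). The 3 brightest, Tal1, Lmo2 and Mef2c, had log2 fold changes of 0.17, 0.17 and -0.13. Tal1 and Lmo2 also act in blood-forming cells, and both were lowest on CD replicate 1, while the other probe of Lmo2 had the opposite sign to its brightest one.

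The ligands and coreceptors of the VEGF and angiopoietin receptors had log2 fold changes from -0.33 to 0.30. Of 10 listed, 0 had an unadjusted limma p under 0.05, and the median log2 fold change was -0.04. Both HFD arrays were higher for 1 of them (23.0% of all genes tested) and lower for 2 (10.1%). Vegfa, the ligand of Kdr and Flt1, had levels of 1.59 and 1.63 under CD and 1.43 and 1.51 under HFD. Both HFD arrays were lower, with a log2 fold change of -0.14 (95% interval -0.57 to 0.29). Among the coreceptors, Nrp2 had a log2 fold change of 0.30 with both HFD arrays higher on its brightest probe, although the other 2 of its 3 probes had the opposite sign, and Nrp1 one of -0.06 with overlapping groups. Angpt4, an angiopoietin, stayed near background on all 4 arrays. It passed the filters and is counted among the 10, but its fitted log2 fold change of 0.09 measures no change in expression.

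Other genes of sinusoidal endothelium had log2 fold changes from -0.09 to 0.86. The highest, Wnt9b, was not well above background on CD replicate 2, and its groups overlapped. Of 13 listed, 0 had an unadjusted limma p under 0.05, and the median log2 fold change was 0.11. Both HFD arrays were higher for 3 of them (23.0% of all genes tested) and lower for 0 (10.1%). The mannose receptor Mrc1 had levels of 1.71 on each CD array and 1.82 and 1.90 on the HFD arrays, with a log2 fold change of 0.15 (95% interval -0.28 to 0.57). Gpr182, a chemokine-binding receptor, had a log2 fold change of 0.11, and the transcription factor gene Maf had one of 0.18. Among 20 genes of endothelium in general, 0 had an unadjusted limma p under 0.05, with a median log2 fold change of 0.01. Both HFD arrays were higher for 1 of them (23.0% of all genes tested) and lower for 4 (10.1%). The brightest of these, the secreted vessel protein gene Egfl7, had a log2 fold change of 0.23 (95% interval -0.23 to 0.68). Cd34 and Ramp2 had log2 fold changes of 0.13 and 0.03, and for each of them the other probe had the opposite sign.

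The markers of other cells were measured on the same arrays. Lymphatic vessels share Lyve1, Flt4 and Pecam1 with sinusoids. Of the 4 lymphatic genes listed, Prox1, which hepatoblasts also express, had a log2 fold change of 0.03. Pdpn had one of 0.27 and Foxc2 one of 0.70, and the groups overlapped for these genes. Ccl21a, a chemokine of lymphatic endothelium, had levels of 0.88 and 0.34 under CD and -0.27 and 0.03 under HFD. Its log2 fold change was -0.73 (95% interval -1.41 to -0.04), which had an unadjusted limma p under 0.05 but was under 2-fold (adjusted p = 1.00). Macrophages of the fetal liver also express Stab1 and Lyve1. Of 14 macrophage genes, 13 were tested, and 12 stood well above background on every array. Among the 13 tested genes, 0 had an unadjusted limma p under 0.05, and the median log2 fold change was 0.04. Both HFD arrays were higher for 3 of the 13, where 23.0% of all genes tested had this order. Of the 3 brightest, Marco had a log2 fold change of 0.40 with both HFD arrays higher, while Cd5l and Csf1r had 0.15 and 0.04 with overlapping groups, and the other probe of Csf1r had the opposite sign. Their summed level, on the log2 scale, was 6.09 and 6.51 under CD and 6.44 and 6.41 under HFD. Megakaryocytes and platelets share Pecam1. Over 10 of their genes the median log2 fold change was 0.23, and the summed level was 6.35 on CD replicate 1 and between 6.98 and 7.19 on the other arrays. The brightest of these, Pf4, Ppbp and Treml1, had log2 fold changes of 0.18, 0.23 and 0.43. For both lists the summed level of each HFD array lay between those of the CD arrays, and the part of these cells in the levels of Stab1 and Pecam1 was not tested.

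CD replicate 1 and CD replicate 2 stood at opposite ends in several of these lists. Relative to each gene's mean over the arrays, the 11 hepatoblast genes, led by Afp, Alb and Trf, had median levels of -0.27 on CD replicate 1 and 0.24 on CD replicate 2, and the 11 stellate and mesenchymal genes, led by Col1a1, Col3a1 and Dcn, had 0.40 and -0.21. On the HFD arrays, both lists lay between -0.04 and 0.03. The 11 erythroid genes, led by Hba-a1, Hbb-bt and Slc4a1, had -0.28 and 0.15 on the CD arrays. Over the 10 sinusoidal genes, the same measure was 0.00 and 0.06 under CD and -0.02 and 0.08 under HFD. Stab2 (both probes), Lyve1 and Oit3 were lowest on CD replicate 1, as were the hepatoblast and erythroid lists, while Kdr and Flt1 were lowest on CD replicate 2, as was the stellate and mesenchymal list. The part of these lists in the levels of the sinusoidal genes was not tested.

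Larger differences between the diets lay in the lists of tissues outside the liver. The 20 trophoblast genes, some of which the study had chosen on these same arrays, had median relative levels of 1.1 and 2.99 under CD and -0.98 and -2.83 under HFD. Of them, 7 were tested. The filters left out the others, and all of those but Syna, which stayed near background, were lower on both HFD arrays. Tpbpa and Ceacam11, for example, were left out because their signal varied too much within both diets. Tpbpa had levels of 3.01 and 4.80 under CD and 1.00 and -1.01 under HFD, and Ceacam11 had 0.49 and 2.37, and -2.05 and -4.30. The tested genes are thus no measure of the whole list. Of the 7, Prl8a6 and Prl3a1 passed both cutoffs. They were not well above background on either HFD array, and were at least 11.4-fold and 2.99-fold lower there, measured against the lowest signal well above background (adjusted p = 1.00 for both). The 7 tested genes did not all go 1 way. Phlda2 had a log2 fold change of 0.47 with both HFD arrays higher and an unadjusted limma p under 0.05 (adjusted p = 1.00). The bright genes Gcm1 and Psg23 had 0.55 and -0.19 with overlapping groups. On the HFD arrays they stayed bright, at 5.43 and 5.60 for Gcm1 and 4.97 and 5.44 for Psg23. Whether these 2 probes measure trophoblast RNA was not tested. Over the 8 neuron genes the median log2 fold change was -0.68, with 5 lower on both HFD arrays (10.1% of all genes tested). Of the 8, 3 had an unadjusted limma p under 0.05 (2.85% of all genes tested), and 0 passed both cutoffs. The brightest, Stmn2, Snap25 and Gap43, had -0.43, -0.29 and -0.31. In the kidney and gonad list, Cyp11a1 and Cdh16 were among the genes the study reported as higher on these same arrays. On the probe tested here, however, Cdh16 had a log2 fold change of 0.08 with overlapping groups. For this list, of which 9 of 10 genes were tested, the median was 0.70, with Cyp11a1 (1.88) and Nr5a1 (1.20) past both cutoffs. Its brightest genes Eya1, Wt1 and Foxl2 had 0.25, 0.70 and -0.31. Placenta, brain, kidney and gonad contain endothelium too, and how far such RNA reached the levels of Kdr, Flt1, Cdh5 or Pecam1 was not tested.

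**Figure D4:**
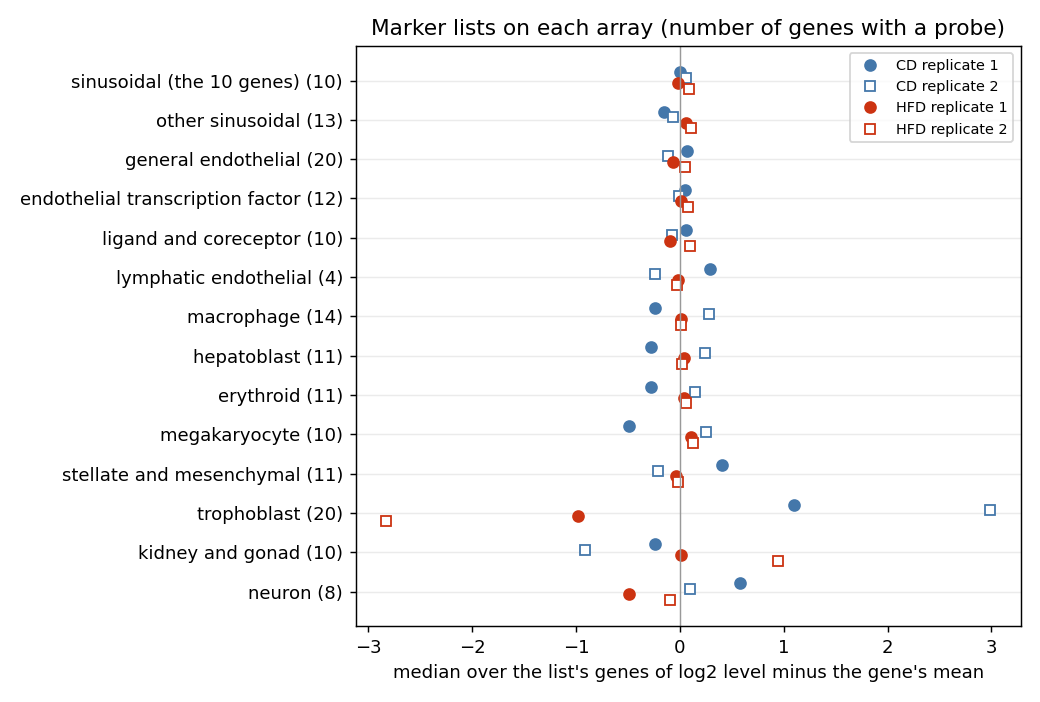
Median level of each marker list on the 4 arrays, on the log2 scale relative to each gene's mean over the arrays (blue CD, red HFD, filled circles replicate 1, open squares replicate 2). The 10 sinusoidal genes lie between -0.02 and 0.08, and the megakaryocyte, hepatoblast and stellate lists place the HFD arrays between the CD arrays. The trophoblast list, most of whose genes the study reported as lower on these same arrays, separates the diets most widely.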

How the data were processed

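Groups, replicate numbers and diets were taken from the sample labels. The authors hybridised Cy3-labelled cRNA to an Agilent mouse array and read it with Agilent Feature Extraction 11.0.1.1. They deposited, per spot, a background-subtracted intensity with no scaling between arrays, and flags, which are scores of 0 or 1. They also deposited a table of normalized signal, which was the intensity divided by 1 constant per array (within 0.1% for 100% of 41163 probes). Its direction and scale could thus be set, and its column medians were 0.305, 0.276, 0.286 and 0.293. The number of arrays limits the precision. All 4 arrays shared 1 slide and 1 scan day.

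Levels were log2 intensities minus the 75th percentile over non-control probes, with spots averaged and outlier spots left out. Following the study's filters, probes that any array placed under its 20th percentile or with a CV over 50% in both groups were left out, which left 41332. The study's methods take the CV on a log scale, and the linear scale was used here, which removes more probes (the CV of the log2 signal, an alternative, left 41614). Diets were compared in R 4.3.3 with lmFit and eBayes of limma 3.58.1 (no covariates, Benjamini-Hochberg over all tested probes), with cutoffs of an unadjusted p of 0.05 and 2-fold, and the steps were tested on simulated data. Probes were named through RefSeq transcripts (GRCm38.p6), which gave 32994 probes 1 of 22911 symbols. Each gene is represented by the probe with the highest mean level. Probes of a gene can disagree, and probes were not compared with each other in level. The rule named the 10 genes, the 3 brightest of each other list and any past both cutoffs. Erg, Fli1, Ets1, Angpt4, Wnt9b, Foxc2, Cdh16, Tpbpa, Ceacam11, Syna and the sex-linked transcripts were named outside it, after their values were seen. The genes and lists were chosen with earlier results of these data known. Tables and plots were made with Python 3.11.15, pandas 2.3.3, numpy 2.4.6 and matplotlib 3.10.9. Alternatives are named in the closing section.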

Additional observations from a re-analysis of the deposited data

How the results depend on the processing

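By its brighter probe, no sinusoidal gene passed both cutoffs under any alternative run (0 of 10), while the dim Oit3 probe did so without CD replicate 1. Those tried were normexp background correction, quantile normalization, the deposited table, other filters on dim or variable probes, the test named in the methods, the mean over probes, a block for replicate number and leaving out each array. Normexp used the median brightness of spots, as the mean was not among the columns used. Slide and scan could not be blocked, since all arrays shared them. With the replicate block 435 probes in all passed both cutoffs, and the median log2 fold change of 0.04 cannot change, as the layout is balanced. Deviations of the replicate 1 arrays from their group means had a correlation of -0.10 over 41332 probes, so the number was not taken to pair arrays. The sex-linked transcripts did follow the number, and a correlation over all probes cannot decide how far other single genes do.

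Averaging the probes of each gene moved the median log2 fold change to -0.062, the number of genes with groups that did not overlap from 5 to 3, and Oit3 to -0.14. Leaving out 1 array at a time gave medians from -0.015 to 0.093 and 6 to 9 such genes (8 without CD replicate 1 and 9 without HFD replicate 1), where a group of 1 array makes overlap rarer. The log2 fold change then ran from -0.068 (without CD replicate 2) to 0.31 for Kdr, from -0.090 to 0.0024 (without CD replicate 2) for Flt4, from -0.40 to 0.22 (without CD replicate 2) for the dim Stab2 probe, and from -1.12 to 0.15 (without CD replicate 2) for the dim Oit3 probe. The differences within a replicate number were added after seeing the data. On the replicate 1 arrays alone the median was -0.045, and Kdr (-0.14), Flt1 (-0.057), Flt4 (0.014) and the dim probes of Stab2 (0.22) and Oit3 (0.29) changed sign, as did Cdh5 (0.074) on the replicate 2 arrays. Probes past both cutoffs numbered 318 of 41332, and between 48 (normexp) and 1226 (without CD replicate 1) under the alternatives.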
